A study of Homo sapiens with 8 samples.

Results

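The MAF and BACH factors are basic leucine zipper transcription factors, and 6 of their genes were examined in A549 cells: the small MAF genes MAFF, MAFG and MAFK, the large MAF gene MAF, and BACH1 and BACH2. The genes were chosen by name and found on the arrays through the RefSeq accession given for each probe, and all 6 were present, with 9 probes, among 19062 genes measured. A549 is an established human lung adenocarcinoma cell line. Cells received either EEDS or helveticoside. EEDS is an ethanol extract of the seeds of Descurainia sophia and was given at 1.25, 5 or 20 μg/mL. Helveticoside is a cardiac glycoside and was given at 3.75, 15 or 60 nM. Each of these series had its own control at dose 0, which the study calls a vehicle control and the sample labels only a control. The exposure lasted 24 h by the study's methods and 48 h by the sample labels. Every group was 1 array that held RNA pooled from 3 cultures, so no value has a replicate error, and the agent and the series in which it was run cannot be told apart. The comparisons ask how each gene moved with the dose of the extract and of the glycoside. In bulk RNA, fewer cells of a type and less RNA per cell cannot be told apart.

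Small MAF proteins have a DNA-binding leucine zipper but no activation domain, so their effect on a gene depends on the partner. With NRF2 and the other CNC factors they form activating dimers at antioxidant response elements, and with BACH1 or BACH2 they form repressing dimers at the same elements. BACH1 is released from DNA by heme and is known as the repressor of HMOX1, the heme oxygenase gene. BACH2 and the large factor MAF are best known in lymphocytes, and MAF carries an activation domain of its own. A549 cells are known to carry a KEAP1 mutation that keeps NRF2 active.

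All 6 epithelial markers (KRT8, KRT18, KRT19, KRT7, EPCAM and CDH1) were called well above background by the scanner software on all 8 arrays. Of 4 lymphoid markers, CD3E and MS4A1 were well above background on none of the arrays, and PTPRC and CD79A on all 8. The endothelial markers PECAM1 and VWF were well above background on none, COL1A1 was so on all 8 arrays and COL3A1 on 1. Between 54.5% and 64.9% of probes were well above background on an array, with the helveticoside series (54.5% to 59.5%) below the EEDS series (63.3% to 64.9%). The part of this difference in the results was not tested.

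The promoters of MAFF, MAF and BACH1 are shown because these genes reached more than 2-fold above control with both agents, and along different courses. Each line gives the 250 bases before the most upstream start that the RefSeq table of build GRCh38.p14 lists for the gene, 5′ to 3′ on the gene's own strand, and capitals mark matches to the motifs searched. MAFF lies at chr22:38201744-38201993 on the plus strand, MAF at chr16:79600738-79600987 on the minus strand and BACH1 at chr21:29298672-29298921 on the plus strand.
MAFF: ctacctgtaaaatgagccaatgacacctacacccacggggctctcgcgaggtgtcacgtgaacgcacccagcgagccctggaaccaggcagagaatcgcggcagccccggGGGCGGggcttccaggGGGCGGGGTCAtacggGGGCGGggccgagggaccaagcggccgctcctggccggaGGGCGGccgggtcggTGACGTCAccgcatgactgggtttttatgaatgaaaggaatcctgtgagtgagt
MAF: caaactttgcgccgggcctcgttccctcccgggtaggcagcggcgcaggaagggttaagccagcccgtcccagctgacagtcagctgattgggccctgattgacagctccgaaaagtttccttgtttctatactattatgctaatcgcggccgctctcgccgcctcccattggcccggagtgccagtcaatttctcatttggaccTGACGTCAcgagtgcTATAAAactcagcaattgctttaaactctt
BACH1: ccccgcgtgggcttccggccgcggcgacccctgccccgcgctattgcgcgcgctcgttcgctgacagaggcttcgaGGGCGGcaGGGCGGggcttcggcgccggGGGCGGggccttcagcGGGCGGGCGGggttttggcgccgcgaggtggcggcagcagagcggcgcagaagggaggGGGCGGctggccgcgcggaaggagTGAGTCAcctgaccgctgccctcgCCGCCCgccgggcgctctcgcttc

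The motifs searched on both strands were TGACTCA (the AP-1 site), TGACGTCA (the cAMP response element, which binds CREB and ATF factors), TGACNNNGC (the core of the antioxidant response element), GGGCGG (the GC box) and TATAAA (the TATA box). Over all 35116 start windows of the table, they were found in 4.2%, 1.65%, 10.9%, 42.6% and 10.7% of windows. In MAFF, TGACGTCA began 54 bases before the start, and a TGACNNNGC match on the other strand at 122 bases before it overlapped 1 of 4 GC boxes. In MAF, TGACGTCA began 45 bases and TATAAA 30 bases before the start. The upstream window of BACH1 held TGACTCA on the other strand, 48 bases before the start, and 7 GC boxes, of which a pair overlapped. The table had 8 start windows for 5 of the 6 genes, and MAFK has no entry. The other windows of MAFF and BACH1, 1 and 2 in number, held none of TGACTCA, TGACGTCA and TGACNNNGC. TGACGTCA was also found in the window of BACH2, 82 bases before the start. Thus 3 of the 5 genes held TGACGTCA, each in 1 window, while the 1.65% above is a share of windows and not of genes. The MAFG window held 1 GC box alone. These matches describe the letters of the windows and not the binding of a factor.

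With EEDS, MAFF, MAFK and BACH1 rose with dose, and the same 3 genes rose with helveticoside. The test was a slope on the log2 scale per dose step (control, lowest, middle and top dose), fitted with limma over the 8 arrays for all genes, and a gene was called when p, adjusted by the Benjamini-Hochberg procedure, was below 0.05. Of 19041 genes tested with EEDS, 7.26% were called rising and 7.91% falling, against 3 and 0 of the 6 members. With helveticoside, 5.45% of 19051 genes were called rising and 5.82% falling, again against 3 and 0 members. The counts of 0 of 6 falling lie near the shares over all genes. MAFG, MAF and BACH2 did not pass the test with either agent. In the fit, the scatter of the arrays about the trend lines, with 4 residual degrees of freedom, stood in for replicates. Each residual SD given below is the moderated value from limma, which draws a gene's own scatter toward that of all genes.

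**Figure D1:**
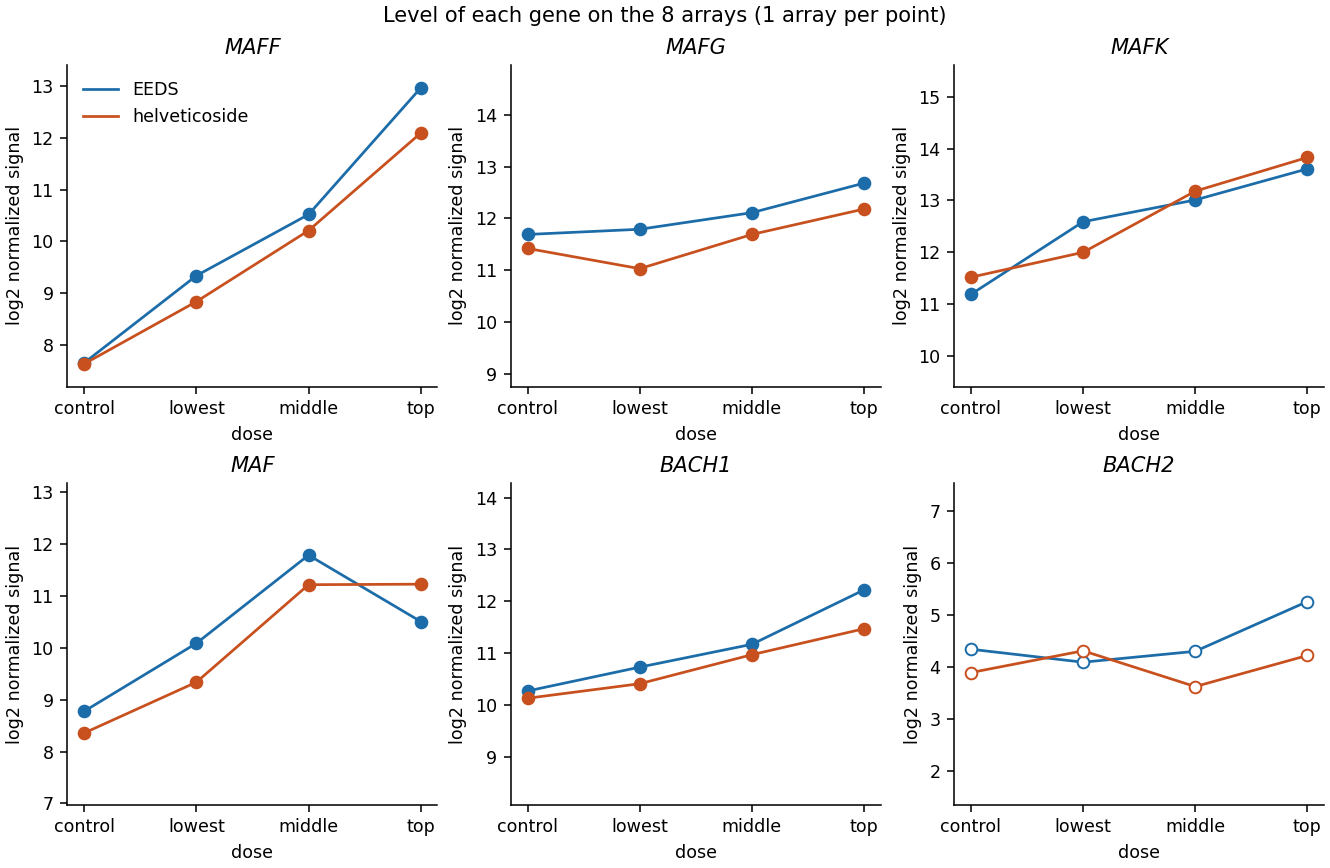
Level of each gene on the 8 arrays, as log2 normalized signal on axes of equal span, against dose (control, lowest, middle and top) for the EEDS and helveticoside series; each point is 1 array, lines join a series, and open points were not well above background. MAFF spans the widest range, from 7.64 to 12.96, MAF peaks at 5 μg/mL of EEDS, and BACH2 is open on all 8 arrays.

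MAFF, a small MAF known as a stress-inducible member of the family, had log2 levels of 7.66 in the EEDS control, 9.34 at 1.25 μg/mL, 10.52 at 5 μg/mL and 12.96 at 20 μg/mL. In the helveticoside series its levels were 7.64 in the control, 8.84 at 3.75 nM, 10.21 at 15 nM and 12.09 at 60 nM. Every step was upward with both agents, every treated array lay above both controls, and the controls differed by 0.02. The level was 3.2-fold, 7.24-fold and 39.3-fold that of the control at the rising EEDS doses. With helveticoside it was 2.3-fold, 5.94-fold and 21.8-fold the control, as log2 ratios 1.20, 2.57 and 4.44, which in the deposited value table were lower, at 0.80, 1.96 and 3.67. The slope was 1.71 per dose step with EEDS (SE 0.13, adjusted p = 0.0128) and 1.47 with helveticoside (SE 0.13, adjusted p = 0.0166). The 11486 genes that the software called well above background on every array include MAFF, which had the 4th highest ratio to control of them at the top dose of each agent. Among all genes, MAFF ranked 10th of 19050 at 20 μg/mL and 26th of 19062 at 60 nM.

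The MAFF probe was printed 10 times on each array, which shows the error of the spots though not that between cultures. In the EEDS control the processed signal of its spots ran from 185 to 206, and at 20 μg/mL from 11700 to 13400. In the helveticoside control it ran from 190 to 241 over 9 spots, 1 spot having been left out as an outlier, and at 60 nM from 4080 to 4530. The SD over the spots of an array was between 0.05 and 0.10 on the log2 scale. In these signals, no spot of a lower dose reached the spots of the next dose in its series. The spot signals were taken before quantile normalization, so their ratios between arrays are not the folds given above. The EEDS call for MAFF was lost without the EEDS control (adjusted p = 0.11) or the 20 μg/mL array (adjusted p = 0.119). The helveticoside call was lost without the 15 nM array (adjusted p = 0.0605) or the 60 nM array (adjusted p = 0.268).

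MAFK, another small MAF, had log2 levels of 11.19 in the EEDS control, 12.59 at 1.25 μg/mL, 13.01 at 5 μg/mL and 13.61 at 20 μg/mL. In the helveticoside series they were 11.52 in the control, 12.00 at 3.75 nM, 13.18 at 15 nM and 13.83 at 60 nM. Each step was upward, but the steps were of unequal size in the series. With EEDS, 57.7% of the log2 ratio seen at the top dose was present at the lowest dose, against 20.6% with helveticoside, whose largest step (1.18) lay between 3.75 and 15 nM. The top-dose level was 5.36-fold the control with EEDS and 4.96-fold with helveticoside. The slope was 0.77 per step (SE 0.11, adjusted p = 0.0181) with EEDS and 0.81 (SE 0.11, adjusted p = 0.0204) with helveticoside. With dose entered as a share of the top dose in place of the step, both calls were lost (adjusted p = 0.205 and 0.177).
MAFK's controls differed by 0.33, and its EEDS call was lost without the EEDS control (slope 0.51, adjusted p = 0.125), the 20 μg/mL array (adjusted p = 0.123) or the 15 nM array (adjusted p = 0.0502). Its helveticoside call was lost without the helveticoside control (adjusted p = 0.0722), the 15 nM array (adjusted p = 0.0649) or the 60 nM array (adjusted p = 0.269).

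MAFG, the third small MAF, stayed closer to its control than MAFF and MAFK. Its log2 levels were 11.69 in the EEDS control, then 11.79, 12.11 and 12.68 at the rising EEDS doses. They were 11.42 in the helveticoside control, then 11.03, 11.69 and 12.18 at the rising helveticoside doses. The 1.25 μg/mL array lay within the residual SD of the fit (0.26) of its control, and the 3.75 nM array lay 0.39 below its control. At the top doses MAFG stood at 1.99-fold and 1.7-fold the control. The slopes of 0.33 (SE 0.11, adjusted p = 0.11) and 0.30 (SE 0.11, adjusted p = 0.156) did not pass the test, although their unadjusted p were 0.0305 and 0.0448. The EEDS slope was 0.21 without the 20 μg/mL array, and the helveticoside slope was 0.58 without the helveticoside control and 0.13 without the 60 nM array. A second MAFG probe, well above background on all 8 arrays, gave log2 ratios of 0.01, 0.36 and 1.18 with EEDS and of −0.59, −0.02 and 0.59 with helveticoside, so the probes had opposite signs at 15 nM. The EEDS slope was called after scaling each array by its 75th percentile (adjusted p = 0.0407) and without the helveticoside control (adjusted p = 0.0442).

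MAF, the large MAF of the group, had log2 levels of 8.78 in the EEDS control, 10.09 at 1.25 μg/mL, 11.79 at 5 μg/mL and 10.51 at 20 μg/mL. In the helveticoside series the levels were 8.36 in the control, 9.34 at 3.75 nM, 11.22 at 15 nM and 11.23 at 60 nM. All 6 treated arrays lay above both controls, but the course was not a straight line: the middle EEDS dose was the highest, and the middle and top helveticoside doses differed by 0.01. Relative to control, MAF stood at 2.49-fold, 8.07-fold and 3.33-fold with EEDS and at 1.96-fold, 7.24-fold and 7.27-fold with helveticoside. At the middle doses its ratio ranked 16th with EEDS and 9th with helveticoside among the 11486 genes well above background throughout, and at the top doses 514th and 57th. Among all genes its ratio ranked 46th and 89th at the middle doses and 898th and 174th at the top doses. The moderated residual SD of the fit was 0.73, the widest of the 6 genes. The slopes of 0.69 (SE 0.32, adjusted p = 0.208) and 1.05 (SE 0.32, adjusted p = 0.1) did not pass the test. The EEDS slope was 0.21 without the EEDS control and 1.51 without the 20 μg/mL array. The 20 μg/mL array lay within that SD of the 1.25 μg/mL array. The helveticoside slope of MAF was called on signals as scanned (adjusted p = 0.0436), after normexp background correction (adjusted p = 0.041), among genes well above background alone (adjusted p = 0.031) and without the 20 μg/mL array (adjusted p = 0.0427).

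**Figure D2:**
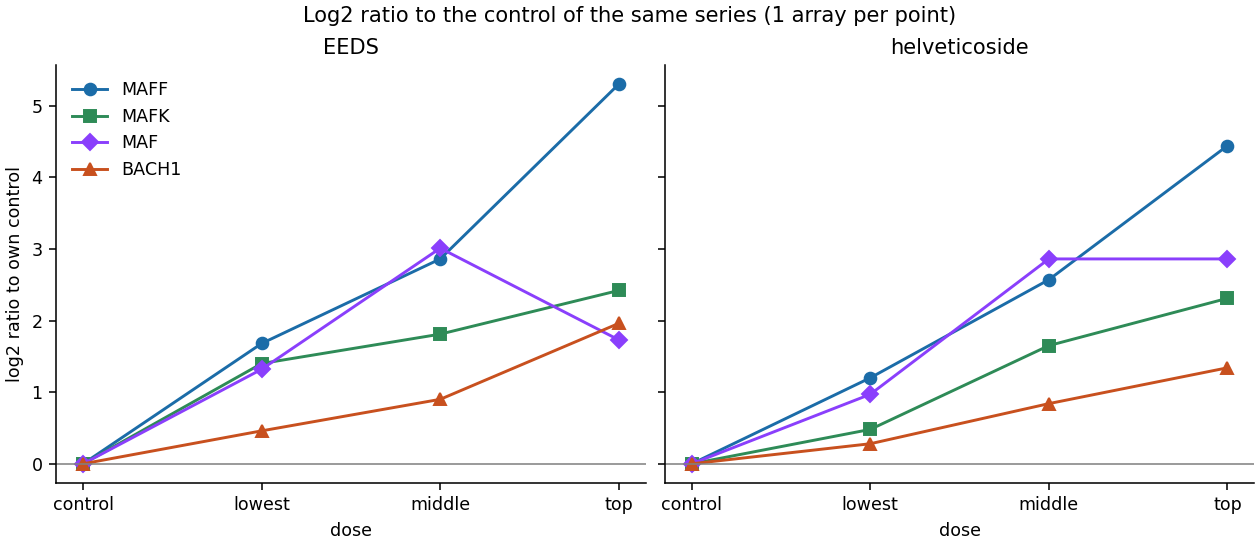
Log2 ratio to the control of the same series against dose for MAFF, MAFK, MAF and BACH1, with EEDS on the left and helveticoside on the right; each point is 1 array. MAFF climbs to 5.30 and 4.44, whereas MAF is at 3.01 and 2.86 at the middle dose and at 1.73 and 2.86 at the top dose.

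BACH1, the heme-regulated repressor that pairs with small MAF proteins, had log2 levels of 10.27 in the EEDS control, 10.73 at 1.25 μg/mL, 11.17 at 5 μg/mL and 12.22 at 20 μg/mL. In the helveticoside series they were 10.13 in the control, 10.41 at 3.75 nM, 10.97 at 15 nM and 11.47 at 60 nM. Each dose lay above the one before it by more than the residual SD of 0.18. The top-dose level was 3.88-fold the control with EEDS and 2.53-fold with helveticoside. The slope was 0.63 per step with EEDS (SE 0.08, adjusted p = 0.0145) and 0.46 with helveticoside (SE 0.08, adjusted p = 0.0286). A second BACH1 probe, designed to a noncoding transcript of the gene, was not well above background on the helveticoside control and 3.75 nM arrays. Its log2 ratios with EEDS were 0.39, 1.18 and 1.47. Its log2 level was 7.42 at 15 nM and 6.88 at 60 nM, so by this probe the top helveticoside dose lay below the middle one. With the mean of both probes, the BACH1 log2 ratio at 15 nM was 1.46 in place of 0.84.
The EEDS call for BACH1 was lost without the EEDS control (adjusted p = 0.11) or the 20 μg/mL array (adjusted p = 0.123). The helveticoside call held without the EEDS control, the 5 μg/mL array or the 20 μg/mL array, and was lost without any of the other 5 arrays (adjusted p between 0.0595 and 0.282).

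BACH2 had 2 probes, and neither was well above background on any array, so no fold is given. The brighter probe had log2 levels of 4.34, 4.09, 4.30 and 5.26 from the EEDS control to 20 μg/mL. It had 3.89, 4.31, 3.62 and 4.22 from the helveticoside control to 60 nM. The array at 20 μg/mL was the highest, but the levels followed no order with dose, and the slopes were 0.30 (SE 0.17, adjusted p = 0.287) and 0.03 (SE 0.17, adjusted p = 0.979).

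The differences between the agents are side-by-side values, since the doses differ in kind and only slopes per step could be compared. The EEDS slope minus the helveticoside slope was 0.24 for MAFF (95% interval −0.22 to 0.70), 0.03 for MAFG (−0.37 to 0.44) and −0.04 for MAFK (−0.44 to 0.35). It was −0.36 for MAF (−1.51 to 0.79), 0.17 for BACH1 (−0.10 to 0.45) and 0.27 for BACH2 (−0.33 to 0.86). In limma, 0% of 19041 genes (0 genes) passed the adjusted threshold for this difference. An unadjusted p under 0.05 was found for 525 of the 19041 genes and for 0 of the 6 members. A count of 0 of 6 lies near the share over all genes. The smallest p of a member was 0.171, for BACH1. The intervals are wide, so slopes that differ by less than these bounds could not be separated. The control arrays of the series differed by −0.02 for MAFF, −0.27 for MAFG, 0.33 for MAFK, −0.41 for MAF, −0.13 for BACH1 and −0.45 for BACH2 (helveticoside control minus EEDS control), against an SD of 0.65 over all genes.

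**Figure D3:**
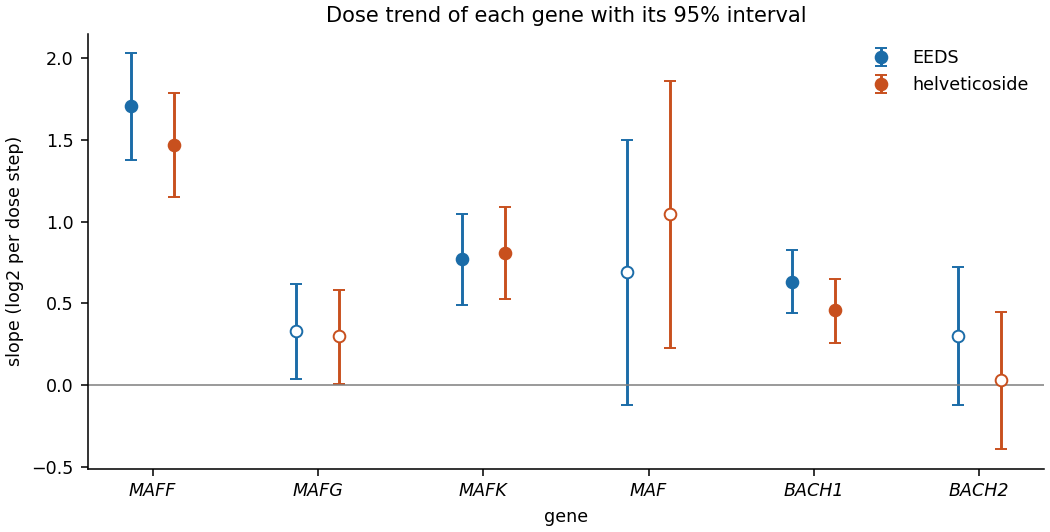
Slope of the log2 level per dose step for each gene with EEDS and helveticoside, from the limma fit over 8 arrays; bars are 95% intervals and filled points passed the adjusted threshold. MAFF has the steepest slopes (1.71 and 1.47), and the intervals of the agents overlap for each gene.

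Counted by size alone, with no test, MAFF, MAFK and MAF were more than 2-fold above control at 1.25 and at 5 μg/mL of EEDS, and BACH1 joined them at 20 μg/mL. That is 3, 3 and 4 of 6 genes, where 4.2%, 7.36% and 13.3% of all genes were more than 2-fold higher. With helveticoside, MAFF alone was past 2-fold at 3.75 nM, MAFF, MAFK and MAF at 15 nM, and these and BACH1 at 60 nM. That is 1, 3 and 4 of 6 genes, against 3.39%, 7.13% and 10.8% of all genes. The count at 3.75 nM was 0 on signals as scanned, after normexp and in the deposited table, where the log2 ratio of MAFF was 0.94, 0.96 and 0.80. None of the 6 genes was more than 2-fold lower at a top dose, where 14.6% of all genes were so with EEDS and 12.9% with helveticoside. A count of 0 of 6 lies near these shares. The median log2 ratio of the 6 genes was 0.89, 1.36 and 1.85 at the rising EEDS doses, against 0.01, 0.01 and 0.02 over all genes. With helveticoside it was 0.45, 1.25 and 1.82, against 0.01, −0.04 and 0.00. Without BACH2, the medians over the other 5 genes at the top doses were 1.96 and 2.31. After scaling by the 75th percentile, the median of all genes moved to −0.20, −0.21 and −0.36 at the EEDS doses and to 0.14, −0.13 and −0.18 at the helveticoside doses. Against those medians, the log2 ratios of MAFF (5.38 and 4.27 at the top doses), MAFK (2.58 and 2.60), MAF (1.75 and 2.76), BACH1 (2.14 and 1.41) and MAFG (1.23 and 0.97) kept their direction at the top doses.

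The genes whose courses were most like those of each member were sought over the 6 log2 ratios to control, by the root mean square difference, among 11485 other genes with a probe well above background throughout. They were chosen for their likeness, which is given as a description. For MAFF they were PPP1R15A (0.35), which encodes the stress-induced GADD34 subunit of protein phosphatase 1 and C3orf52 (0.52). PPP1R15A had log2 ratios of 1.43, 2.77 and 5.86 with EEDS and of 0.78, 2.18 and 4.52 with helveticoside. For BACH1 they were PPP1R15B (0.11), a constitutive relative of PPP1R15A, DCP1A (0.11), an mRNA decapping factor, and KBTBD2 (0.12). For MAFK they were ROR1 (0.09), SLC38A2 (0.12), an amino acid transporter, and TNFRSF10B (0.12), a death receptor for TRAIL. The genes nearest to MAF were COXFA4L3 (0.29), TMEM158 (0.29) and RHCG (0.39), and their ratios also did not peak at the top EEDS dose: COXFA4L3 had 2.90 at 5 μg/mL and 2.28 at 20 μg/mL, TMEM158 2.51 and 1.85, and RHCG 2.09 and 1.70. For MAFG they were TFB2M (0.04), LSM14B (0.09) and UTP15 (0.10), each of which was below control at 3.75 nM as MAFG was.

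Of 7 partners and relatives of these factors (NFE2, NFE2L1, NFE2L2, NFE2L3, MAFA, NRL and KEAP1), 0 were called with either agent. Over all genes, 7.26% were called rising and 7.91% falling with EEDS, and 5.45% and 5.82% with helveticoside. A count of 0 of 7 lies near these shares. The median log2 ratio at the top dose over the 5 measured was −0.41 with EEDS and −0.09 with helveticoside. NFE2L1, which encodes the CNC factor NRF1, had log2 levels of 12.42, 13.12, 13.60 and 13.29 from the EEDS control to 20 μg/mL and of 12.36, 12.72, 13.32 and 13.26 from the helveticoside control to 60 nM. Its slopes were 0.31 (SE 0.12, adjusted p = 0.136) and 0.33 (SE 0.12, adjusted p = 0.134). NRL, a large MAF known from rod photoreceptors, stood 2.31-fold above control at 20 μg/mL and 1.19-fold at 60 nM (adjusted p = 0.0528 and 0.458 for the slopes). NFE2, the CNC factor of erythroid cells, was at least 2.59-fold lower at 20 μg/mL than in its control, a bound because the treated array was not well above background, and it was below that limit on both arrays compared at 60 nM. The probe of NFE2L2, the NRF2 gene, was not well above background on any array, so the NRF2 transcript has no level here. KEAP1, the inhibitor of NRF2, had log2 ratios of −0.64 and −0.27 at the top doses (adjusted p = 0.118 and 0.473).

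Of the 21 genes listed as under antioxidant response element control, 20 were measured and none was called rising. Over all genes, 7.26% were called rising with EEDS and 5.45% with helveticoside, and 0 of 20 lies near these shares. With EEDS, 3 of the 20 fell, where 7.91% of all genes did: GCLC and GCLM, the subunits of the enzyme that starts glutathione synthesis, and PGD of the pentose phosphate pathway. With helveticoside, 2 of the 20 fell, GCLC and PGD, where 5.82% of all genes did. The counts of 3 and 2 of 20 also lie near these shares. The 20 genes were all well above background on all 8 arrays. Among the 11486 genes of that kind, tested alone, 3598 were called with EEDS and 2769 with helveticoside, rising or falling. The median log2 ratio of the 20 genes at the top dose was −0.46 with EEDS and −0.50 with helveticoside, against 0.02 and 0.00 over all genes, and 15 of 20 lay below control with each agent. These medians and counts describe the list and compare it with no other list. Without the EEDS control or the 20 μg/mL array, 0 genes of the whole table were called with EEDS, and without the 15 or 60 nM array 0 were called with helveticoside, so the calls of this list are lost with them.

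GCLC had log2 levels of 12.77, 12.22, 11.53 and 11.31 from the EEDS control to 20 μg/mL and of 12.62, 12.02, 11.42 and 11.07 from the helveticoside control to 60 nM. Its level went down at each step, with slopes of −0.51 (SE 0.06, adjusted p = 0.0144) and −0.52 (SE 0.06, adjusted p = 0.0175). PGD had log2 levels of 15.67, 15.35, 14.24 and 13.78 with EEDS and of 14.94, 14.80, 13.83 and 12.72 with helveticoside. This was also downward at each step, with slopes of −0.68 (SE 0.12, adjusted p = 0.025) and −0.76 (SE 0.12, adjusted p = 0.0253). GCLM had a slope of −0.33 with EEDS (SE 0.05, adjusted p = 0.0206) and of −0.15 with helveticoside (SE 0.05, adjusted p = 0.141), and its controls stood apart (14.65 and 15.77).

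HMOX1, the gene for which BACH1 repression is best known, had log2 levels of 13.15, 12.85, 12.99 and 12.93 in the EEDS series and of 12.05, 10.95, 12.26 and 12.11 in the helveticoside series. It followed no order with dose, and its slopes were −0.05 (SE 0.19, adjusted p = 0.961) and 0.15 (SE 0.19, adjusted p = 0.738). NQO1, a quinone reductase, had log2 ratios of −0.41 and −0.68 at the top doses (adjusted p = 0.224 and 0.0594). At the top dose, 4 of the 20 genes were more than 2-fold below control with EEDS and 6 with helveticoside, against 14.6% and 12.9% of all genes. Past 2-fold below control at a top dose, but without a called slope, were SLC48A1, a heme transporter (log2 ratios of −1.40 with EEDS and −1.09 with helveticoside), AKR1B10 (log2 ratios of −1.13 and −1.78), SLC7A11, the cystine transporter (log2 ratios of −0.98 and −1.06), and AKR1C1 (log2 ratios of −0.98 and −1.08). SQSTM1, the autophagy receptor p62, was the only one of the 20 genes past 2-fold above control, with a log2 ratio of 1.56 at 20 μg/mL and of 0.99 at 60 nM (adjusted p = 0.0601 and 0.147 for the slopes).

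**Figure D4:**
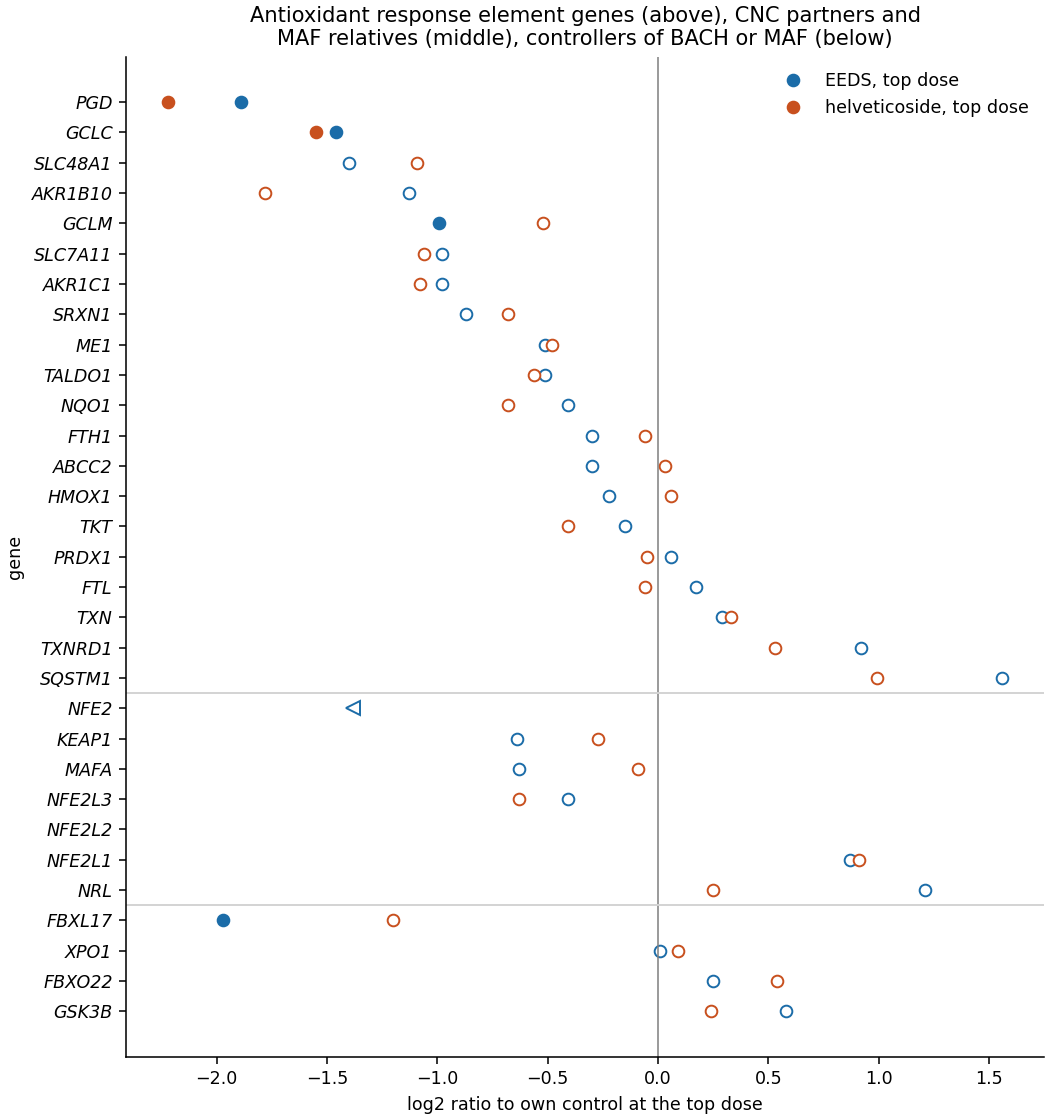
Log2 ratio to own control at 20 μg/mL of EEDS and 60 nM of helveticoside for 20 antioxidant response element genes, 7 CNC partners and relatives and 4 controllers, separated by grey lines; each point is 1 array against 1 array, filled points had a called dose trend, the triangle is a bound, and points are left out where neither array was well above background. PGD (−1.89 and −2.22) and GCLC (−1.46 and −1.55) lie left of 0 and filled with both agents, while HMOX1 lies near 0.

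The list of 4 genes that act on BACH proteins or on MAF held FBXO22 and FBXL17, which are subunits of ubiquitin ligases, the export receptor XPO1 and the kinase GSK3B. Of these, 1 was called falling with EEDS, where 7.91% of all genes were, and 0 with helveticoside, where 5.82% were. None was called rising, where 7.26% of all genes were with EEDS and 5.45% with helveticoside. A list of 4 genes is too short for counts of 1 or 0 to be set apart from these shares. The gene called was FBXL17, whose product is known to target BACH1. Its log2 levels were 9.13, 8.43, 8.38 and 7.16 from the EEDS control to 20 μg/mL and 9.46, 9.15, 9.23 and 8.25 from the helveticoside control to 60 nM. Its slope was −0.60 with EEDS (SE 0.14, adjusted p = 0.0426) and −0.35 with helveticoside (SE 0.14, adjusted p = 0.156), with a difference of −0.24 (95% interval −0.72 to 0.24). The EEDS call for FBXL17 was lost without the EEDS control or the 20 μg/mL array, as were all EEDS calls. FBXO22, XPO1 and GSK3B did not pass the test, and their log2 ratios at the top doses lay between 0.01 and 0.58.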

How the data were processed

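The authors deposited 1 file of scanner intensity per spot for each array (median signal, local background and a background-subtracted processed signal) with flags for outlier, saturated and well-above-background spots, and a table of linear intensity values that, from its values, was quantile-normalized within each series. Exposure was 24 h per the study's methods and 48 h per the labels. No slide or scan information was used. Outlier and control spots were left out, processed signals were averaged per probe, and quantile normalization over all 8 arrays preceded the log2 transform. Of 34127 probes, 24827 matched 19062 genes of RefSeq GRCh38.p14 by accession. For 4801 genes with several probes the one with the highest mean signal was used, and OSGIN1 was not matched. Genes had to reach 1.4 times the background on at least 1 array of the series. Slopes were fitted with limma 3.58.1 (trend and robust, statmod 1.5.0, R 4.3.3) after a check on simulated data, and p-values were adjusted by Benjamini-Hochberg over all genes. Ratios, ranks and motifs were computed with Python 3.11.15, numpy 2.4.6 and pandas 2.3.3, and plots with matplotlib 3.10.9. No depth applies to arrays, and their number limits the precision. The p-values measure scatter about the trend lines.

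The named genes were all 6 members with every probe, the listed partners, targets and controllers that were called or past 2-fold at a top dose, with NFE2L1, NFE2L2, KEAP1, HMOX1 and NQO1 added after their values were seen, and the 3 genes nearest to each measured member. A few genes are not reported here and were taken out of the lists before counting, and every other listed gene that was measured is counted, named or not. The members and lists were chosen with earlier results of these data known. Alternatives covered background correction, scaling, the deposited table, filters, probe choice, the dose scale, the control used, the fold limit and leaving out each array.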

Additional observations from a re-analysis of the deposited data

How the results depend on the processing

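Of the 6 genes, 3 were called with EEDS and 3 with helveticoside. With dose as a share of the top dose, 0 were called with helveticoside and 2 with EEDS, and in fits to the 4 arrays of a series alone, 0 were called with EEDS and 0 with helveticoside, as was no gene of the whole table. Leaving out 1 array at a time gave between 0 and 4 calls with EEDS and between 0 and 4 with helveticoside, and MAFF, MAFK and BACH1 kept positive slopes with both agents in each of these fits. Under the other alternatives, 3 or 4 genes were called with each agent, and 4 to 6 were past the fold limit at the top EEDS dose and 3 to 5 at the top helveticoside dose. The helveticoside slope of BACH2, which lies below the well-above-background limit, became −0.01 on signals as scanned, −0.02 after normexp, −0.02 after 75th percentile scaling, −0.02 in the deposited table and −0.01 as the mean of its probes. With an array left out it ran from −0.14 to 0.09, and the EEDS slope of BACH2 from −0.02 to 0.59. The difference between the agents was called for 0 genes of the 6 under the alternatives run. The number of genes called in the whole table with EEDS was 4597 with the deposited table against 2888, and with helveticoside 832 with dose as a share against 2148. The causes were not tested. With 1 array a dose, a call rests on 4 residual degrees of freedom, and the number of arrays limits what could be called. No paired analysis was possible because each group had 1 array.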
